A study of Mus musculus with 6 samples.

Results

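The enzymes described here build and cap the sugar chains of mucins and related glycoproteins and glycolipids in the mouse pyloric region. They were chosen by gene symbol: every array probe whose symbol begins with Galnt, Gcnt, B3gnt, B3galt, B4galt, St3gal, St6gal (St6galnac included), St8sia or Fut, followed by a number. This gave 92 of the 34967 gene probes and 67 of the 18507 gene symbols. The symbols comprise 65 glycosyltransferase genes, the pseudogene Fut4-ps1 and the antisense gene Galnt6os. A further 3 probes that the annotation assigns to a member together with another gene were left out. Of the 92 probes, 84 from 62 genes passed the filter on dim probes and were tested.

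The series holds 6 one-colour CodeLink mouse arrays, each hybridised with total RNA of the pyloric region of 1 embryo at E18.5, late in gestation: distal stomach with a short margin of gut on both sides of the pyloric narrowing. Parents were heterozygous for a Cre allele of Bapx1, another name for Nkx3-2, a homeodomain transcription factor of gut and skeletal mesenchyme, and embryos were genotyped from yolk sac DNA. The labels name 3 embryos knockout and 3 wildtype. The 3 litter pairs were inferred from the leading digits of the animal codes and are not spelled out in the labels. By the dates in the array files, pair 1 was handled apart from pairs 2 and 3, and the sets are called batch A and batch B. Every embryo came from the same heterozygous cross. The sources used here give neither the strain background nor how the Cre allele alters the Nkx3-2 transcript.

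Mucin-type O-glycans begin when a polypeptide GalNAc-transferase, encoded by a Galnt gene, links N-acetylgalactosamine to a serine or threonine. Core enzymes then add galactose or N-acetylglucosamine, the Gcnt enzymes open branches, and the B3gnt, B3galt and B4galt enzymes lengthen the chains. Sialyltransferases and fucosyltransferases cap them, and in stomach and intestine these caps set the charge of mucus and the blood group and Lewis antigens it carries. Not every member acts on mucins. B4galt7 and B3galt6 build the linker of proteoglycans, St3gal5, St8sia1 and B3galt4 make gangliosides, and Fut8 and St6gal1 act on N-glycans.

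All values below are log2 normalized intensities, and all differences are arrays labelled knockout minus arrays labelled wildtype. Spots exceeded their background by a median of 204 and 207 on the pair 1 arrays and of 109 to 131 on the others, and 13.2% to 16.7% of gene probes were near background on an array. The transcript of Nkx3-2 read 7.85 against 7.74 and so was not lower in the arrays labelled knockout (difference 0.11, SE 0.18, limma adjusted p = 1). No source used here places its probe relative to the altered allele, so directions rest on the labels. The knockout array of pair 1 stood apart by its liver markers: the mean level of 6 such genes was 11.3 there and 7.81 to 8.26 on the other 5 arrays. Values by pair are therefore given for the members with the largest differences. Gastric surface genes (mean level 12.4 to 13.2) and intestinal absorptive genes (11.5 to 12.5) were present on all 6 arrays, so the stomach and the intestine were both represented.

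No enzyme passed the test. Of 84 member probes 0 had an adjusted p under 0.05 in limma with Benjamini-Hochberg adjustment over 30207 probes, where the share of all tested probes called was 0%. At an unadjusted p under 0.05 there were 4 member probes. The 3 lower ones, against 0.202% of all tested probes, were both tested probes of the sialyltransferase St8sia6 and 1 of the branching enzyme Gcnt3. The single higher one, against 0.685% of all tested probes, belonged to the sialyltransferase St3gal1. With litter pair as a block 6 member probes were lower and 4 higher at that level (1.63% and 2.57% of all tested probes), and with batch as a block 6 and 2 (1.96% and 3.12%), with 0 past adjustment either way.

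The member differences lay around 0, with a median of 0.01, 37 of 84 probes below 0 (44%, against 50.5% of all tested probes) and 47 above, against a median of -0.0015 over all tested probes. The median size of a difference was 0.10 among members and 0.09 among all tested probes. By class, the medians were -0.0001 for 20 initiation probes, -0.13 for 6 core branching probes and -0.05 for 17 chain extension probes. They were 0.08 for 30 sialylation probes, of which 22 lay above 0, and 0.01 for 9 fucosylation probes. Within pairs 2 and 3 the medians were -0.04, -0.10 and -0.12 for the first 3 classes, 0.09 for sialylation and -0.13 for fucosylation. The classes therefore showed no common direction, and the largest single differences came from 3 genes.

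**Figure D1:**
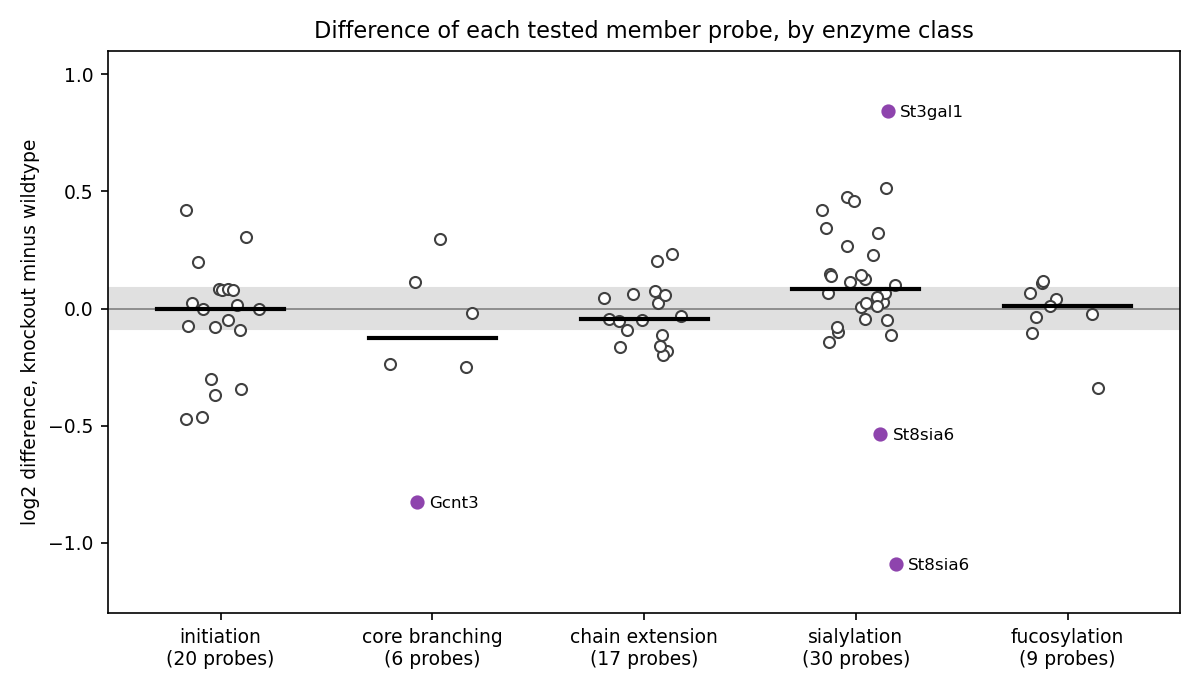
The log2 difference (knockout minus wildtype, vertical axis) of the tested member probes of 5 enzyme classes, one point each, is plotted by class, with class medians as black lines and the middle 50 percent of all tested probes as a grey band; the 2 noncoding probes are not drawn. Filled points mark an unadjusted p under 0.05, and these are the probes of St8sia6, Gcnt3 and St3gal1.

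Transferases of the initiation class differ in the peptides on which they act. Of 15 Galnt genes 14 were tested, and Galnt14 was near background on all 6 arrays. Galnt12, an enzyme known in humans from the digestive tract, read 11.02, 11.74 and 11.36 on the knockout arrays of pairs 1, 2 and 3, and 11.43, 12.28 and 11.83 on the wildtype arrays. The knockout array was the lower one in every pair, but the groups overlapped because pair 2 was brighter in both. The difference was -0.47 (SE 0.28, adjusted p = 1 in limma), and with litter pair as a block its SE was 0.10, at an unadjusted p of 0.00408. Within pairs 2 and 3 it was -0.50.

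Galnt2, a broadly expressed initiating enzyme, gave a similar picture at one probe. That probe read 10.9999, 11.91 and 11.90 on the knockout arrays and 11.35, 12.25 and 12.31 on the wildtype arrays. Knockout was lower within each pair by close amounts (-0.35, -0.34 and -0.41), while both pair 1 arrays lay below all others. The difference was -0.37 (SE 0.36). Its SE with litter pair as a block was 0.10, at an unadjusted p of 0.0120 in limma, and it did not pass adjustment. The second Galnt2 probe had a difference of 0.09, with -0.19, 0.41 and 0.04 by pair. The probes therefore disagreed in sign.

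Galnt6, a close relative of Galnt3, also had probes that disagreed. The first probe read 7.11, 7.49 and 7.17 on the knockout arrays and 7.37, 8.20 and 7.59 on the wildtype arrays, a difference of -0.46 (SE 0.25, limma adjusted p = 1). Knockout was lower in every pair, and the knockout array of pair 2 lay above the wildtype array of pair 1. The SE with litter pair as a block was 0.13, at an unadjusted p of 0.0109 in limma, and this probe did not pass adjustment. The second probe differed by 0.08, from -0.32 in pair 1 to 0.71 in pair 2. Galnt3 itself, which in humans and mice protects the phosphate hormone FGF23, differed by -0.35, and by -0.80, 0.14 and -0.38 in pairs 1 to 3. Galnt18, another family member, gave -0.30 at one probe and 0.08 at the other. At the first the pairs disagreed, with 0.34, -0.76 and -0.48, and without pair 2 it was -0.07. Galnt10, which prefers peptides that already carry a GalNAc, gave 0.20 and 0.31 at its probes, with 0.05, 0.12 and 0.42 by pair at the first and -0.19, 0.90 and 0.20 at the second.

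Core branching divides into enzymes that were well detected and enzymes near the floor. Gcnt3, the core 2 and core 4 branching enzyme of mucus-secreting epithelia, had the second lowest difference among member probes. Its first probe read 12.78, 13.29 and 13.21 on the knockout arrays and 13.94 and 13.90 on the wildtype arrays of pairs 2 and 3. The wildtype spot of pair 1 was flagged contaminated and has no value. All 3 knockout values lay below both wildtype values, with a difference of -0.82 (SE 0.21, unadjusted p = 0.00957, adjusted p = 1 in limma), or 0.565-fold. Because the missing array belongs to the pair in which this probe read lowest, the values of pairs 2 and 3, -0.65 and -0.69, are the paired measure. The other Gcnt3 probe read 8.69, 9.47 and 8.81 against 9.25, 9.09 and 9.37. There the knockout array was lower in pairs 1 and 3 and higher in pair 2, with a difference of -0.25 (SE 0.24).

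Gcnt4, another core 2 branching enzyme, went the other way. It read 8.47, 7.88 and 7.81 on the knockout arrays and 8.32, 7.50 and 7.46 on the wildtype arrays, a difference of 0.30 (SE 0.30, limma adjusted p = 1). The knockout array was the brighter one in each pair, and both pair 1 arrays exceeded all the rest. With litter pair as a block the SE was 0.11, at an unadjusted p of 0.0365. Gcnt2, which makes the branched I antigen, differed by 0.11 at its single tested probe, and the other 2 probes were not tested.

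B3gnt6 makes core 3, the alternative to core 1 in gut mucins. It was near background on all 3 knockout arrays, at 6.10, 6.18 and 5.76, and read 6.27, 6.27 and 6.21 on the wildtype arrays. The probe passed the filter through its wildtype arrays alone, so nothing is read from its order. The difference was -0.24 (SE 0.16, limma adjusted p = 1). With the knockout level taken as a bound, the ratio of wildtype to knockout was 1.06-fold (log2 0.08), which is within that SE.

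**Figure D2:**
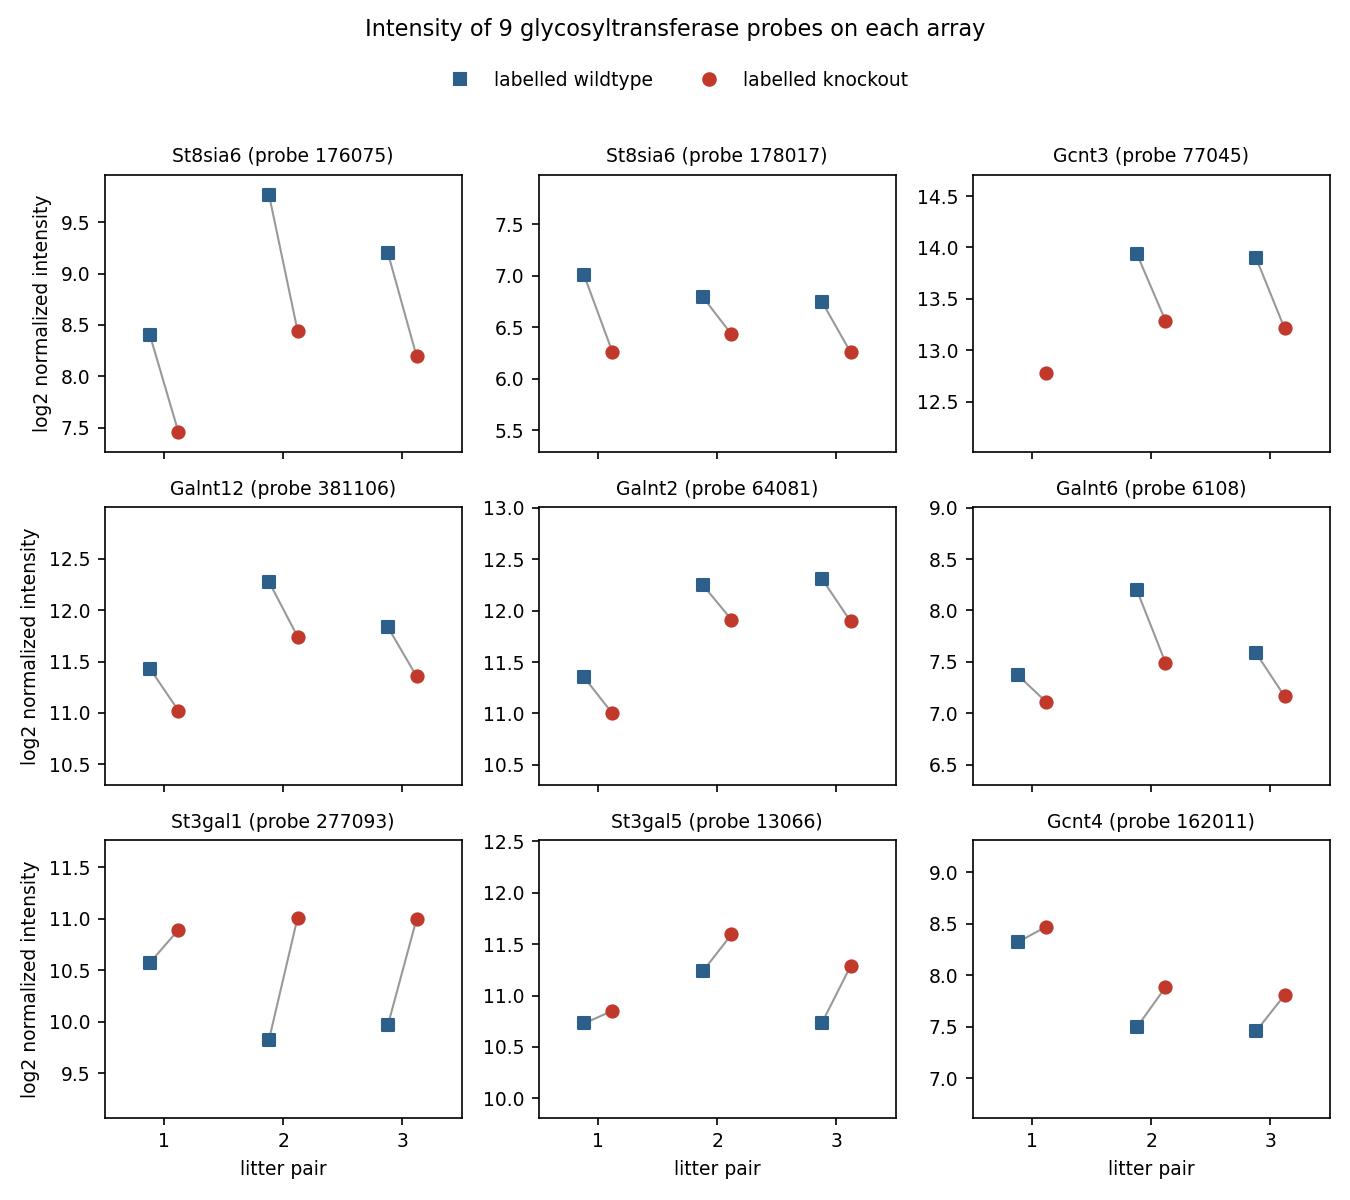
Log2 normalized intensity (vertical axes, each spanning the same range) is plotted by litter pair for 9 probes of 8 genes, with squares for arrays labelled wildtype, circles for arrays labelled knockout and a line joining the arrays of a pair. The St8sia6, Galnt12, Galnt2 and Galnt6 probes shown were lower in knockout within each pair, the St3gal1, St3gal5 and Gcnt4 probes shown were higher, and the pair 1 wildtype spot of Gcnt3 has no value.

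Among the chain extension enzymes no probe differed by more than 0.23 in size. Of 18 genes 14 were tested. The type 1 chain galactosyltransferase B3galt5, B3gnt4 and the lactosylceramide synthase B4galt5 were near background on all 6 arrays, and B3galt2 on 5. The probes of the galactosyltransferase B4galt3 gave -0.20 and -0.16, and both were lower in pairs 2 and 3 and higher in pair 1. B4galt7 differed by -0.16, with -0.01, -0.27 and -0.20 by pair. B4galt4, a galactosyltransferase of sulfated chains, differed by 0.23, from -0.36 in pair 1 to 0.56 and 0.50 in pairs 2 and 3. B4galt6, the second lactosylceramide synthase, differed by 0.20, of which 0.98 came in pair 2 against -0.29 and -0.08 in the others. None of these passed adjustment (limma adjusted p = 1 for each).

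Some enzymes differed far more between batches than by label. A probe of B3gnt5, which starts lacto-series glycolipids, read 8.27 and 8.09 on the pair 1 arrays and 6.28 to 6.59 on the other 4. Batch A thus exceeded batch B by 1.81, while the label difference was -0.03. At the other B3gnt5 probe the batch difference was 0.36 and the label difference 0.03. Fut1, an H antigen fucosyltransferase chosen after its values were seen, read 9.22 and 9.01 in pair 1 and 7.36 to 7.73 elsewhere, a batch difference of 1.63. In all, 8 of the 84 member probes had batch means over 1 log2 unit apart, 9.52% of members against 9.53% of all tested probes. Batch and litter cannot be told apart between pair 1 and the rest.

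Sialylation held both the lowest and the highest member. St8sia6 transfers sialic acid in alpha-2,8 linkage onto sialylated O-glycans, as known in mouse. Its 300-base promoter, from 250 bases before to 50 after the start in RefSeq on GRCm38.p6 (chr2:13793471-13793770, minus strand), is shown because St8sia6 had the lowest difference of all members and the same direction at both probes. The Gcnt4 promoters (chr13:96924094-96924393 and chr13:96924463-96924762, plus strand) are shown for comparison, as Gcnt4 was higher in knockout in all pairs. Capitals mark TAAGTG or its reverse complement CACTTA, a core sequence bound by Nkx3 proteins. Gcnt4 was 1 of 9 genes with a probe higher in all pairs. Among them Gcnt2 and Fut7 had promoters without this sequence, and St3gal1 had no promoter entry in the sources used. The choice of Gcnt4 therefore does not relate the sequence to direction.

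St8sia6: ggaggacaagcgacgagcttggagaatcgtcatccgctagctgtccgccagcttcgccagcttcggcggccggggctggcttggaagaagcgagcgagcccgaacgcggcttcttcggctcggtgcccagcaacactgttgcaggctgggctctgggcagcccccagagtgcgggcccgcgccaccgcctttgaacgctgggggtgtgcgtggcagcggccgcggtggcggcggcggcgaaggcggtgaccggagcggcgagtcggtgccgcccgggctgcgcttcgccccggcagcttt
Gcnt4 first start: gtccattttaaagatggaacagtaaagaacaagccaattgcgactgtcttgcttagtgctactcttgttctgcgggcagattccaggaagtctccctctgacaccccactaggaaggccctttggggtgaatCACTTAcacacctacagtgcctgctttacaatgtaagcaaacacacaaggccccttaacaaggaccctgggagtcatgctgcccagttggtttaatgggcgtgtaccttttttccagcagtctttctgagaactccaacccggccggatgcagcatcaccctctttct
Gcnt4 second start: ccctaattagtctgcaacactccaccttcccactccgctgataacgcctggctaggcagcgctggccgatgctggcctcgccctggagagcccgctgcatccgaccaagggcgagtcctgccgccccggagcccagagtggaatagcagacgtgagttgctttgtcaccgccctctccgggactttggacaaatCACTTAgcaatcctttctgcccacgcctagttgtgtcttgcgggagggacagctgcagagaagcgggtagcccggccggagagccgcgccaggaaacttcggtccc

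Each Gcnt4 promoter held 1 match, and the St8sia6 promoter held none, which says only that these letters are not in this window. On either strand TAAGTG occurs in 9.2% of the 32851 promoters in the table and in 6 of 68 promoters of 48 member genes (8.82%). Those 6 belong to Fut8, Gcnt1, Gcnt4 and St6gal1. The St8sia6 promoter was 72% G and C with 39 CpG sites, and 6.87% of all promoters had at least that G and C content.

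The first St8sia6 probe read 7.46, 8.45 and 8.20 on the knockout arrays and 8.40, 9.77 and 9.20 on the wildtype arrays of pairs 1, 2 and 3. Knockout was lower in every pair, by -0.945, -1.32 and -0.998, and the groups overlapped only in that the pair 2 knockout array lay just above the pair 1 wildtype array. The difference was -1.09 (SE 0.41, unadjusted p = 0.0332, adjusted p = 1 in limma), or 0.470-fold, and -1.16 within pairs 2 and 3. With litter pair as a block the SE was 0.12, and the gene still did not pass adjustment (adjusted p = 1).

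The second St8sia6 probe differed in the same direction. It read 6.26, 6.43 and 6.26 on the knockout arrays, 1 of them near background, and 7.01, 6.79 and 6.75 on the wildtype arrays. Here the groups did not overlap. The difference was -0.54 (SE 0.15, unadjusted p = 0.00928, adjusted p = 1 in limma). Both probes read the same RNA of the same embryos, so they are not independent samples. In bulk tissue, fewer cells that express St8sia6 and less of its RNA in each cell cannot be told apart.

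St3gal1 adds alpha-2,3-linked sialic acid to the core 1 O-glycan, and it is represented by 5 tested probes. The probe with the largest difference read 10.89, 11.01 and 10.999 on the knockout arrays and 10.57, 9.82 and 9.97 on the wildtype arrays. All knockout values lay above all wildtype values, and the knockout arrays lay closer together than the wildtype arrays did. The difference was 0.84 (SE 0.22, unadjusted p = 0.00722, adjusted p = 1 in limma), or 1.79-fold, and by pair it was 0.32, 1.19 and 1.03. A second St3gal1 probe read 11.09, 11.32 and 11.42 against 11.19, 10.86 and 10.52, with the knockout array slightly lower in pair 1 and higher in the others. Its difference was 0.42 (SE 0.21).

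The other 3 St3gal1 probes differed by 0.32, 0.11 and 0.03. All 5 probes were thus above 0 by the group means, by amounts from 0.03 to 0.84, and the 2 smallest turned sign when single arrays were left out. The files do not say which transcript each probe reads.

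The St3gal family has 12 tested probes, 5 of them of St3gal1, and no test was made over the family. The probes had a median difference of 0.28, with 10 above 0, against a median of -0.0015 over all tested probes. By pair the median was 0.03, 0.33 and 0.41. St3gal5, the synthase of the ganglioside GM3, read 10.85, 11.59 and 11.29 on the knockout arrays and 10.73, 11.24 and 10.74 on the wildtype arrays at its first probe. Knockout was higher in each pair, by 0.12, 0.36 and 0.55, and the groups overlapped. The other St3gal5 probe differed by 0.23, from -0.26 in pair 1 to 0.53 in pair 2.

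Single litters decided the values of other family members. St3gal3, which sialylates type 1 and type 2 chains, differed by 0.48, of which 1.49 came in pair 2 against -0.12 and 0.06 in pairs 1 and 3, and without pair 2 it was -0.03. St3gal4, a related enzyme chosen after its values were seen, differed by -1.10 in pair 1, 1.56 in pair 2 and 0.93 in pair 3, and without pair 2 by -0.09. St3gal2 and St3gal6, also outside the naming rule, stayed between -0.10 and 0.07.

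**Figure D3:**
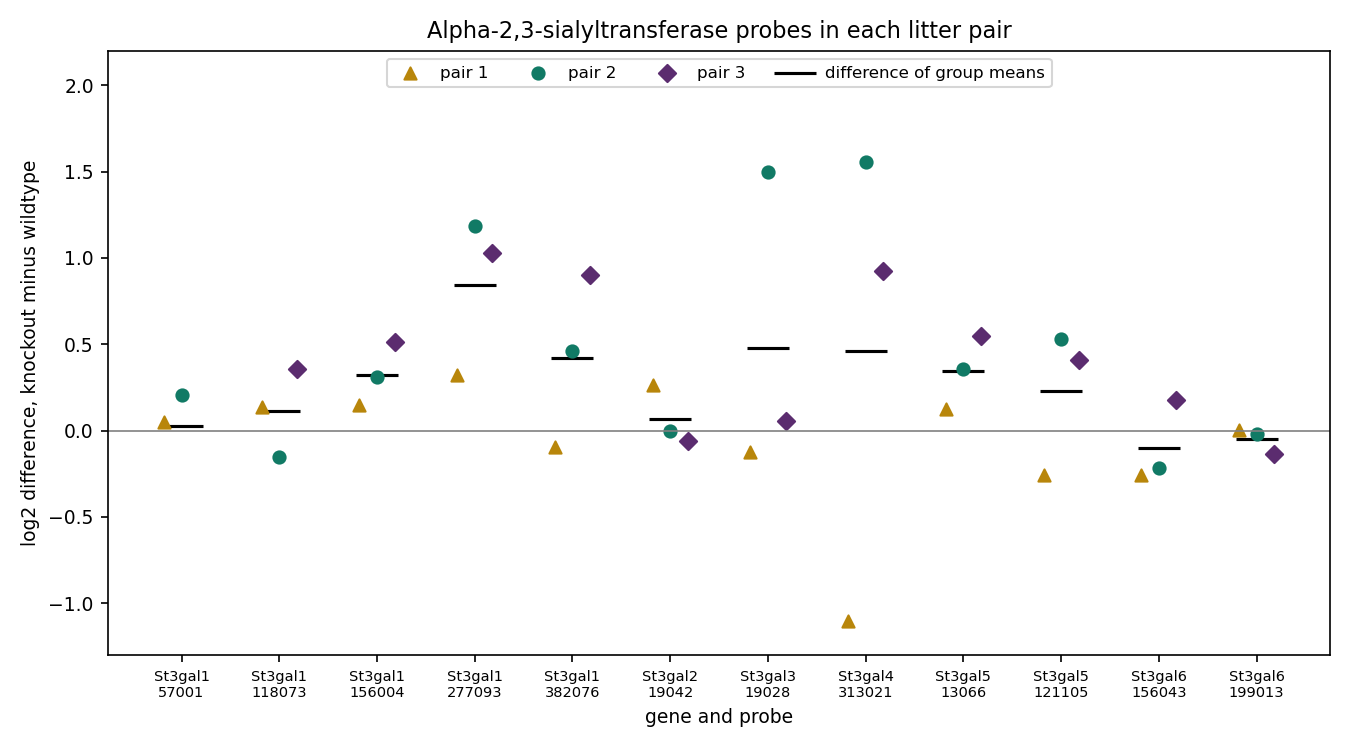
The log2 difference (knockout minus wildtype, vertical axis) of the 12 tested St3gal probes is plotted for each litter pair, with a black bar at the difference of group means; 1 St3gal1 probe has no pair 3 value. Pairs 2 and 3 lie above pair 1 for most probes, and St3gal4 spans from -1.10 in pair 1 to 1.56 in pair 2.

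The remaining sialyltransferases showed smaller or less steady differences. St8sia2, a polysialic acid synthase of the developing nervous system, differed by 0.51 (SE 0.26, limma adjusted p = 1). By pair it was 0.97, -0.15 and 0.71. St6galnac1, which makes the sialyl-Tn antigen, differed by 0.26 and rested on pair 2, where the difference was 0.99. St6galnac6, an enzyme of ganglioside and glycan sialylation, differed by 0.14. The probes of St6galnac3, which acts on sialylated cores and gangliosides, each kept 1 sign in all 3 pairs but opposite signs, at 0.15 and -0.14. Those of the GD3 synthase St8sia1 gave 0.14 and -0.11.

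Fucosylation showed little difference by label. Fut8, which adds the core fucose of N-glycans, differed most, at -0.34 (SE 0.26, limma adjusted p = 1), with -0.56, 0.05 and -0.51 by pair. Fut2, the secretor enzyme that makes the H antigen in gut mucosa, read 8.37, 7.96 and 8.17 on the knockout arrays and 8.40, 8.21 and 8.21 on the wildtype arrays. Its arrays lay close together, and the difference was -0.10 (SE 0.16). The alpha-1,3-fucosyltransferases of Lewis structures differed by 0.11 for Fut4 and 0.12 for Fut7, and Fut9 gave -0.03 and 0.01 at its probes. Both Fut9 probes were higher in pair 1 (0.26 and 0.36) and lower within pairs 2 and 3 (-0.18 and -0.16). Fut7 was near background on 2 of 3 wildtype arrays, and its values spanned only 6.13 to 6.34.

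Agreement between litters was uneven. Of the 80 member probes with all 6 values, 12 were lower in all 3 pairs (15%, against 10.6% of all such probes) and 10 were higher (12.5%, against 11.6%). The lower ones came from 11 genes, among them 3 initiating enzymes (Galnt2, Galnt6 and Galnt12), and the higher ones from 9, among them St3gal1 and St3gal5. Groups did not overlap for 2 member probes with knockout lower, of St8sia6 and B3gnt6 (1.11% of all such probes), and for 2 with knockout higher, of St3gal1 and Fut7 (1.89%). Those of B3gnt6 and Fut7 rest on values near background in one group, so the counts support nothing. By contrast 36 members (45%, against 30.5%) had pair 1 opposite in sign to both other pairs. Across the 80 members the differences of pairs 2 and 3, which share a batch, had a Pearson correlation of 0.55, while those of pairs 1 and 2 had -0.21 and those of pairs 1 and 3 had 0.16. Over all 28109 such probes the same correlations were 0.16, -0.25 and 0.02. These describe probes of the same arrays, which are not independent.

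**Figure D4:**
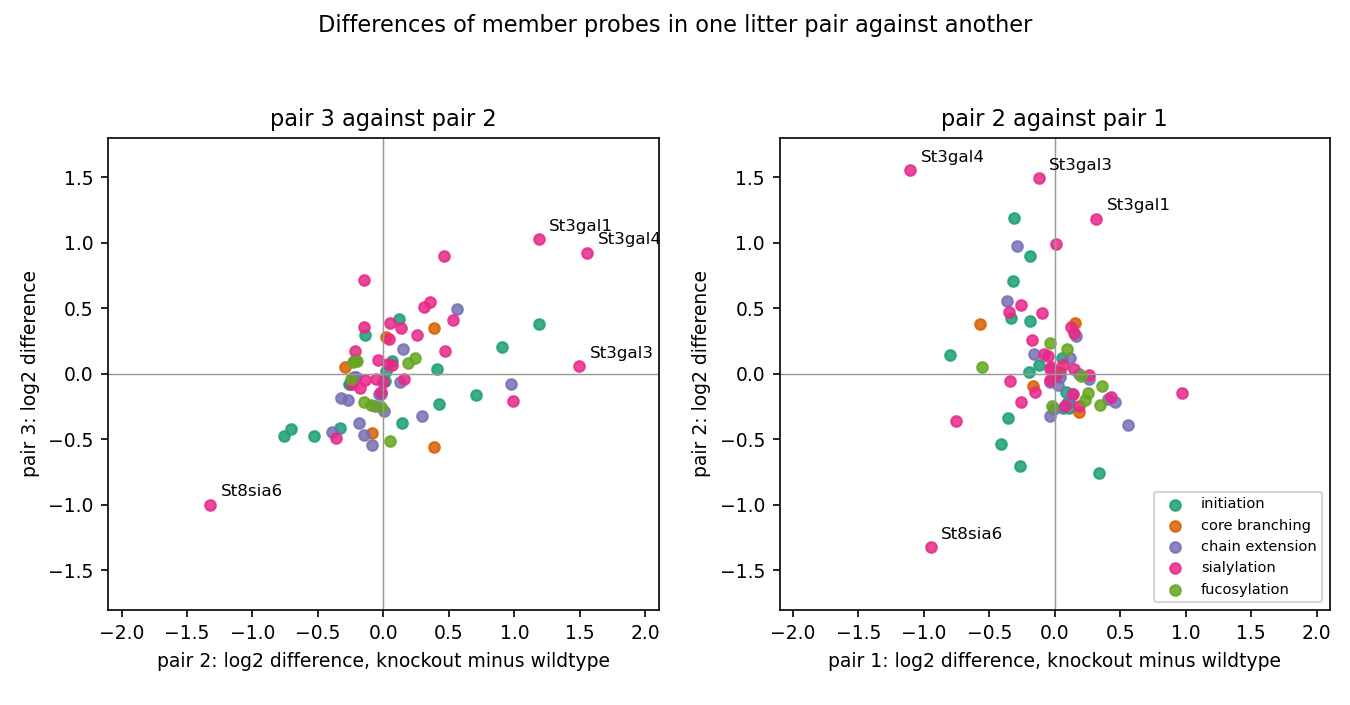
Each point is 1 tested member probe with all 6 values, coloured by class, at its log2 difference (knockout minus wildtype) in one litter pair against another; the 2 noncoding probes are not drawn. St8sia6 lies at the lower left in both panels, St3gal1 at the upper right, and St3gal4 changes sides between pair 1 and pair 2.

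The other genes of the pathway gave a similar picture. Each gene is given here by its tested probe of highest mean signal, and its other probes were not summarised. Of 7 tested core and capping enzymes outside the member families 4 were lower and 3 higher, with a median of -0.11 and 0 at an unadjusted p under 0.05. C1galt1, the core 1 synthase, differed by -0.20, and its chaperone C1galt1c1 by -0.14. Of 21 tested genes of nucleotide sugar supply 10 were lower and 11 higher, with a median of 0.01. The galactose pathway enzymes Galt (0.49, SE 0.17) and Galk1 (0.38, SE 0.15) were the 2 at an unadjusted p under 0.05 (0.0249 and 0.0453), and neither passed adjustment. Of 11 tested mucins, the carriers of these glycans, 6 were lower and 5 higher. The membrane mucin Muc4 differed by -0.47 (SE 0.17, unadjusted p = 0.0271) and Muc3 by 0.88 (SE 0.27, unadjusted p = 0.0160), both with a limma adjusted p of 1. The gland mucin Muc6 had the largest difference of the list, -1.54 (SE 0.68, unadjusted p = 0.0602, limma adjusted p = 1), and was lower in all 3 pairs, by -2.002, -1.52 and -1.10.

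Cell type markers are given beside these values, and no gene in any of the marker lists passed adjustment in limma. Marker genes too are given by the tested probe of highest mean signal alone. All 4 gastric gland markers (Tff2, Muc6, Gkn3 and Pgc) were lower by the group means, with a median of -1.12 and -1.56, -1.03 and -0.75 by pair. Their mean level was 11.5 to 12.8 on knockout arrays and 12.8 to 13.8 on wildtype arrays. The median had the sign of both St8sia6 probes in all 3 pairs and of the first Gcnt3 probe in pairs 2 and 3. So did the striated muscle median given below. The signs of the first Gcnt3 probe in pairs 2 and 3 were met by further lists. These were smooth muscle (-0.35 and -0.18), neurons and glia (-0.08 and -0.25), mucins (-0.19 and -0.28) and core and capping enzymes (-0.01 and -0.11). The other Gcnt3 probe was higher in knockout in pair 2 (0.38). All 8 tested intestinal absorptive markers were higher, with a median of 0.55 and -0.10, 1.18 and 0.72 by pair. The St3gal family shared this order between pair 1 and the rest, and so did the general epithelium list (-0.30, 0.43 and 0.01). The order was not limited to epithelial lists. It also held for nucleotide sugar supply (-0.12, 0.12 and 0.05) and for 2 tested leukocyte markers (-0.18, 0.29 and -0.09). The mean level of the intestinal markers was 12.4 to 12.5 on knockout arrays and 11.5 to 12.5 on wildtype arrays. Striated muscle markers, all 7 lower, had -0.28, -2.30 and -0.96 by pair, with mean levels of 7.93 to 9.75 on knockout and 9.08 to 10.8 on wildtype arrays. Liver markers, all 6 higher by the group means, had 2.61 in pair 1 and -0.12 and -0.19 in the others. No tested gene of the gastric gland, intestinal, striated muscle and liver lists was near background on any array. In them 1 gastric gland and 2 intestinal markers were saturated on at least 1 array, which caps their differences. The medians of the gastric surface, goblet, general epithelium, smooth muscle, neuron and glia, and endothelium lists lay between -0.17 and 0.16. By pair they ranged from -0.47 (goblet, pair 2) to 0.43 (general epithelium, pair 2). Whether tissue shares differed, and their part in the enzyme values, was not tested.

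**Figure D5:**
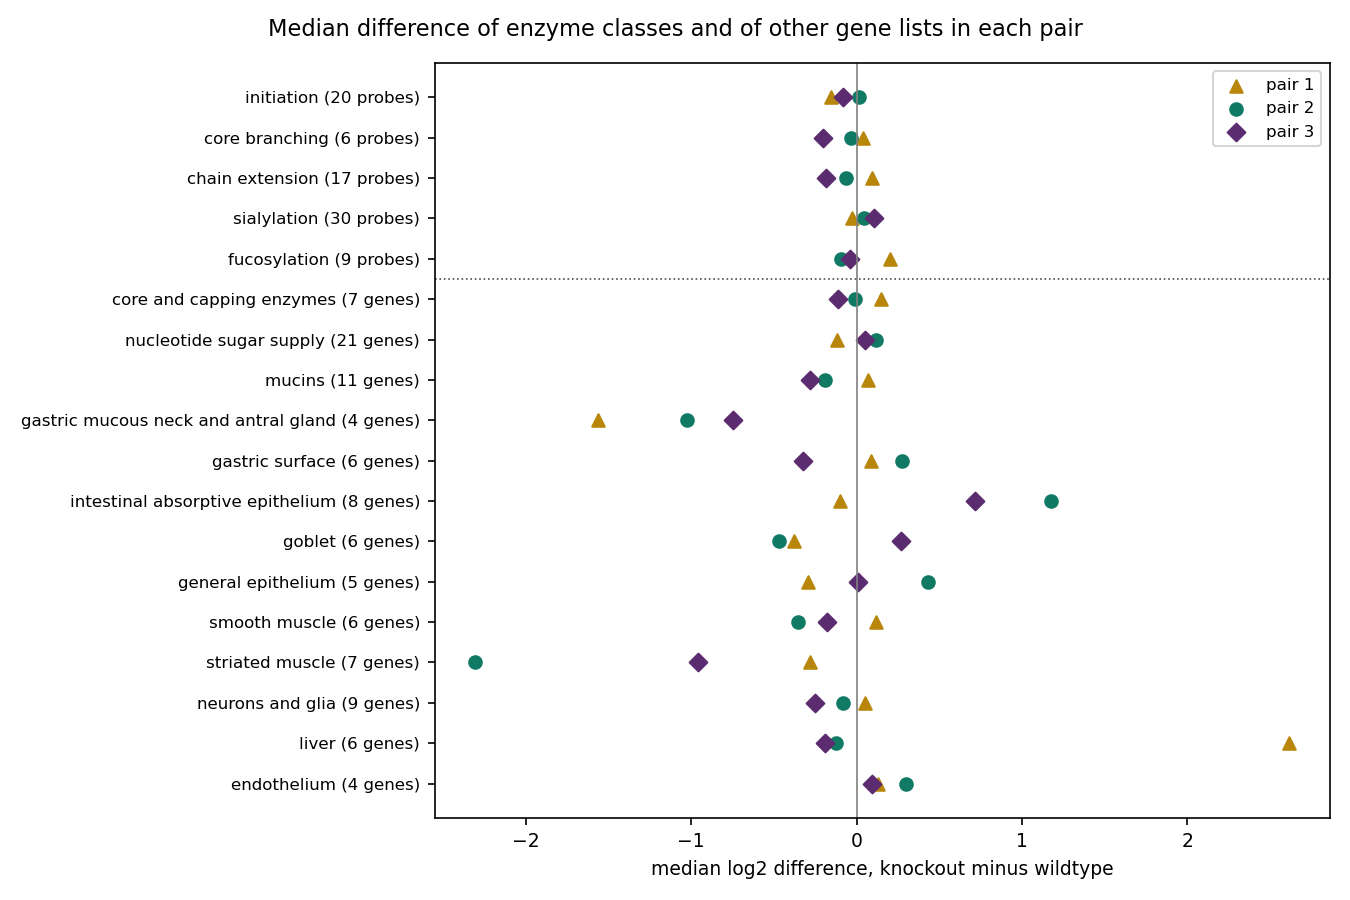
Median log2 differences (knockout minus wildtype, horizontal axis) in each litter pair are plotted for the 5 enzyme classes, above the dotted line, and for lists of other pathway genes and cell type markers with at least 3 tested genes, below it. The enzyme classes stay near 0 while gastric gland, intestinal, striated muscle and liver lists spread further. Genes of the lists below the line are given by their tested probe of highest mean signal.

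The choice of array weights decided whether any member was called. With limma's default array weights, which ranged from 0.173 to 6.78 and gave pair 3 the most weight, 530 probes and 5 member probes passed: both St8sia6 probes, the first Gcnt3 probe and 2 St3gal1 probes. With gene by gene weights, or with default weights and batch as a block, 0 passed.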

How the data were processed

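Values are spot intensities deposited by the authors: per the file headers, scanner files from CodeLink software give each spot's mean intensity and local background median. The deposited series table holds median-scaled intensities of the same arrays. Background was corrected by normexp in limma (offset 50) from these 2 columns, arrays were quantile normalized on the gene probes, and log2 was taken. Masked, irregular or contaminated spots were set missing. A probe was tested if it had a value above background on at least 3 of 6 arrays and at least 2 values per group, which left 30207 probes. Groups were compared with limma 3.58.1 (R 4.3.3, lmFit and eBayes, no block) with Benjamini-Hochberg adjustment at 0.05. The code was first run on simulated data with independent noise and planted differences larger than that of any member. That run therefore does not show whether differences of the size reported here could be found. Probes were named from the platform annotation with symbols updated through RefSeq, and promoter sequences are RefSeq's, GRCm38.p6.

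Deviations from group means correlated within pairs (0.829, 0.508 and 0.605). Pair 1 is batch A in both groups, so shared batch alone can give such correlations, and arrays of different pairs were not compared. The litter pairs therefore rest on the animal codes alone. Named genes are the 4 per class (sialylation 6) of largest moderated t, those of 1 sign in all pairs at 0.5 or more, those whose probes disagree in sign, and those near background in a group. The members and gene lists were chosen with earlier results of these data known. Alternatives covered blocks, batches, single arrays, normalization, filters and array weights.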

Additional observations from a re-analysis of the deposited data

How the results depend on the processing

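The count of 0 probes and 0 members past adjustment was unchanged with litter pair as a replicate block, batch as a block, batch B alone, any array or pair left out, and every other normalization and filter tried, and with gene by gene weights. It moved to 530 probes and 5 members with default array weights. Default weights with batch as a block, added after seeing the data, gave 0. The member median of 0.01 stayed within 0.05 of 0 throughout: -0.0400 in batch B alone, -0.0407 in pair 3 alone, -0.0239 with default weights, -0.0267 with gene by gene weights and -0.0447 to 0.0323 with arrays left out.

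Of the named probes' 920 values under alternatives, 50 turned sign, 30 of 814 in refits and 20 of 106 in single pairs, and 5 were called, all with default array weights. B3gnt5 turned to -0.0942 in batch B alone, -0.13 and -0.11 with the 2 kinds of weights and -0.0166 with weights and batch as a block. Fut9 turned to 0.00139 with a larger pseudocount. The weakest St3gal1 probe turned to -0.17 with flagged spots kept and -0.0273 with default weights. With arrays left out, differences ranged from -0.15 to 0.13 for B3gnt5, -0.0279 to 0.74 for B4galt4, -0.18 to 0.38 for B4galt6, -0.20 to 0.0821 for Fut9, -0.0135 to 0.25 and -0.12 to 0.14 for the 2 weakest St3gal1 probes, -0.0323 to 0.69 for St3gal3, -0.0890 to 0.87 for St3gal4, -0.10 to 0.65 for St6galnac1 and -0.37 to 0.18 for St6galnac3. The causes were not tested. St8sia6 kept -1.45 to -0.77 and -0.62 to -0.45, the first Gcnt3 probe -0.92 to -0.67 and the St3gal1 probe of the largest difference 0.67 to 1.07. The other Gcnt3 probe ranged from -0.57 to -0.09, the next St3gal1 probes by size from 0.18 to 0.59 and 0.19 to 0.49, and the first Galnt18 probe from -0.63 to -0.07. With 3 arrays a group, 1 library moved Galnt2 from -0.68 without the pair 1 wildtype array to -0.07 without the pair 1 knockout array, and Gcnt4 from 0.58 to 0.09. The number of arrays limits precision, and 6 member probes never rose above background.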
